A study of Mus musculus with 37 samples.

Results

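The forkhead transcription factor genes of the mouse were followed through oocytes, early embryos and gastrula-stage lineages with and without maternal BAP1. The 42 genes were chosen by name alone, as the symbols made of Fox, a letter from a to s and a number that both expression tables list, out of 55401 genes per table. The pattern matched 44 symbols, and Foxk1 and Foxk2, whose proteins bind BAP1, were left out by the rule. BAP1 is the catalytic subunit of the Polycomb repressive deubiquitinase, which removes ubiquitin from a histone.

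Knockout oocytes came from females of the genotype Gdf9-iCre, Bap1 flox/flox, in which the oocyte-specific Gdf9 promoter drives the recombinase, and control oocytes from Bap1 flox/flox females, so every mother carried the floxed allele and only the knockout carried iCre. Fully grown oocytes (FGO) and MII eggs (MII) had 2 control and 3 knockout libraries each. Fertilization by B6 males gave late 1-cell (L1C), early 2-cell (E2C) and late 2-cell (L2C) embryos, with 2 control and 3 knockout libraries at L1C and L2C and 3 of each at E2C. At embryonic day 6.5, with PWK sires, epiblast (EPI) and visceral endoderm (VE) had 2 control and 2 knockout libraries each, and extraembryonic ectoderm (EXE) had 1 control and 2. Embryos were cultured in KSOM medium, per the labels. The labels give the sires by strain only, and in the embryos the maternal genotype is what differs between groups. The ages of the animals and the number of oocytes, embryos or females behind a library are not given in the sources used here, so p-values measure the spread between these libraries, which may be partly technical.

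Forkhead proteins share a winged-helix DNA-binding domain and are named by subclass letters. The FOXO proteins are held in the cytoplasm when insulin and growth factor signalling activates AKT, and FOXO3 is known for keeping primordial follicles dormant. FOXA proteins open chromatin in endoderm, FOXH1 binds DNA for SMAD2 in the NODAL pathway, FOXD3 is needed by the epiblast, FOXM1 drives mitotic genes, and FOXP proteins act mostly as repressors.

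The 26 oocyte and early embryo libraries were total RNA and the 11 lineage libraries poly(A) RNA, and levels are in FPKM, fragments scaled to gene length and library size, so levels of different genes can be set side by side but the 2 library kinds are not compared. Values are relative within a library: in bulk samples fewer cells of a type and less RNA per cell cannot be told apart. Differences are on the log2(FPKM + 1) scale, which understates changes of low genes, and a gene was called at an adjusted p below 0.05 in limma, adjusted by the Benjamini-Hochberg method over all genes tested. Genes were tested when at least 2 libraries of a table reached 1 FPKM, which 16 of the 42 forkhead genes did among 15184 genes in total RNA and 18 among 13914 genes in poly(A) RNA. A gene that passes only through the group where it is high had to differ, so counts of calls below describe the tested genes and not all 42. Bap1 itself, the check of the labels, lay between 3.76 and 11.7 FPKM in the knockout and between 16.3 and 29.9 FPKM in the control total RNA libraries. In poly(A) RNA it lay between 18.4 and 33.8 FPKM in the maternal knockout and between 14.0 and 22.6 FPKM in controls. Summed epiblast markers were 1514 to 2377 FPKM in EPI, 144 to 239 FPKM in VE and 568 to 682 FPKM in EXE. Visceral endoderm markers summed to 7076 FPKM or more in VE and at most 15.1 FPKM elsewhere. Extraembryonic ectoderm markers summed to 4282 FPKM or more in EXE, 1174 to 2218 FPKM in VE and at most 50.7 FPKM in EPI. Of these 10 markers, 6 were below 1 FPKM in the VE controls and 5 in the VE knockouts. Blood and decidua markers were at most 0.251 FPKM in VE controls and reached 48.2 FPKM in a VE knockout library, and the part of these in the lineage results was not tested.

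Promoter sequences are shown for 4 genes whose levels carry the results below: Foxj2, called lower in the knockout at 4 of 5 early stages, Foxr1, an oocyte and extraembryonic ectoderm transcript, Foxi3, first above 1 FPKM in late 2-cell embryos, and Foxd3, above 1 FPKM in knockout epiblast alone. Each window runs from 250 bases before to 50 bases after the RefSeq start in build GRCm38.p6, 5′ to 3′ on the gene's strand, with every CpG in capitals. The windows are chr6:122819934-122820233 on the + strand for Foxj2, chr9:44440819-44441118 on the - strand for Foxr1, chr6:70956356-70956655 on the + strand for Foxi3 and chr4:99656049-99656348 on the + strand for Foxd3.
Foxj2: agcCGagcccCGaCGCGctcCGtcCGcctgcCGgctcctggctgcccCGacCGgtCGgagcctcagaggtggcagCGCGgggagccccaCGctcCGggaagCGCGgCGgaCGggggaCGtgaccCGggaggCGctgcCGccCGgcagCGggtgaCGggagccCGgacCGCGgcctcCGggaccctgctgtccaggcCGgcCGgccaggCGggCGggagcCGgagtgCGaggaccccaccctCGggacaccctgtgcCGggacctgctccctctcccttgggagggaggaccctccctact
Foxr1: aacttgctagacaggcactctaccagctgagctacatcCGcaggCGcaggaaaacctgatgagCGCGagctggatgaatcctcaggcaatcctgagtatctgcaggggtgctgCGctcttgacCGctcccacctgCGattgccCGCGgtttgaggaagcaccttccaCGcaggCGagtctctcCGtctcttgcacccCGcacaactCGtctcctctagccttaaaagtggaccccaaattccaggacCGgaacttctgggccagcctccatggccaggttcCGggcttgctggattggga
Foxi3: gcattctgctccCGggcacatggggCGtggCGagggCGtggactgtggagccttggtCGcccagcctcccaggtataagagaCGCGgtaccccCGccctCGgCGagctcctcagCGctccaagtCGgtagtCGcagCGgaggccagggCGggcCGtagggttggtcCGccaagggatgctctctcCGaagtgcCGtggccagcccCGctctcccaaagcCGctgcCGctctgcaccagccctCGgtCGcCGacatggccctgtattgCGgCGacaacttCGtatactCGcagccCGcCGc
Foxd3: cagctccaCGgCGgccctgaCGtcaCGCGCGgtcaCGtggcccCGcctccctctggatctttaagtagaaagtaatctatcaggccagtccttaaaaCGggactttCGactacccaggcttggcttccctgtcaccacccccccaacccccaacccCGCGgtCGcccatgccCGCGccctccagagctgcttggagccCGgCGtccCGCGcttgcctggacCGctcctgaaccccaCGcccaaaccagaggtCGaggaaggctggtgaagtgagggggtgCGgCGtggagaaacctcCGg
These windows hold 37, 16, 31 and 25 CpG in that order, against a median of 7 in all 32851 windows of the table.

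A promoter window was found for 27 of the 42 genes, with 32 windows in all and no entry for 15 genes, among them Foxo4 and Foxh1. The member windows held a median of 19 CpG, and 24 of the 32, or 75.0%, held at least 10 CpG, against 43.5% of all windows. Among the 20 genes that reached a group mean of 2 FPKM somewhere, 14 had a window and the richest window of each held a median of 31 CpG, from 6 in Foxn3 to 44 in Foxp1. Among the 22 genes that did not, 13 had a window and the median was 10 CpG, from 3 in Foxr2 to 27. The window of Foxr2, whose highest levels were in epiblast, was the poorest in CpG. Of the 9 genes at 1 FPKM or more in every total RNA library, 7 had a window, and their richest windows held from 6 CpG in Foxn3 and 16 in Foxr1 up to 42 in Foxj3 and 44 in Foxp1. The forkhead core motif TGTTTAC on either strand occurred in 1 window, that of Foxa1, which is 3.12% of the member windows against 3.65% of all windows. The FOXH1 core AATCCAC on either strand occurred in 1 window, that of Foxr2, which is 3.12% against 2.49%. No window held both motifs, and a match describes letters only.

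The genes were sorted by the library kind in which they reached a level. Library kind goes with stage in this series, so the 2 cannot be told apart in this sorting. A group mean of at least 2 FPKM was reached in both kinds of library by 8 genes (Foxj3, Foxm1, Foxn2, Foxn3, Foxo1, Foxo4, Foxp1 and Foxr1). It was reached in total RNA only by 5 genes (Foxc1, Foxi3, Foxj2, Foxo3 and Foxp2), in poly(A) RNA only by 7 genes (Foxa1, Foxa2, Foxa3, Foxd3, Foxh1, Foxp4 and Foxq1), and in neither by 22 genes. Foxj3, whose protein activates Mef2c in muscle and acts in male germ cells, held between 35.8% and 50.9% of all forkhead FPKM in each total RNA library. Foxo3 followed in 21 of the 26 libraries and was behind another gene in 5, with levels between 71.1 and 109.6 FPKM. In FGO controls the order by mean was Foxj3, Foxo3, Foxn2, Foxm1, Foxr1, Foxo1 and Foxn3 (148, 79.0, 42.9, 37.8, 32.6, 32.0 and 25.4 FPKM). The libraries of Foxr1 and Foxo1 overlapped, and those of the other neighbours did not. At 1 FPKM or more in every total RNA library were 9 genes, and in every poly(A) library 4 genes (Foxh1, Foxj3, Foxm1 and Foxn3).

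**Figure D1:**
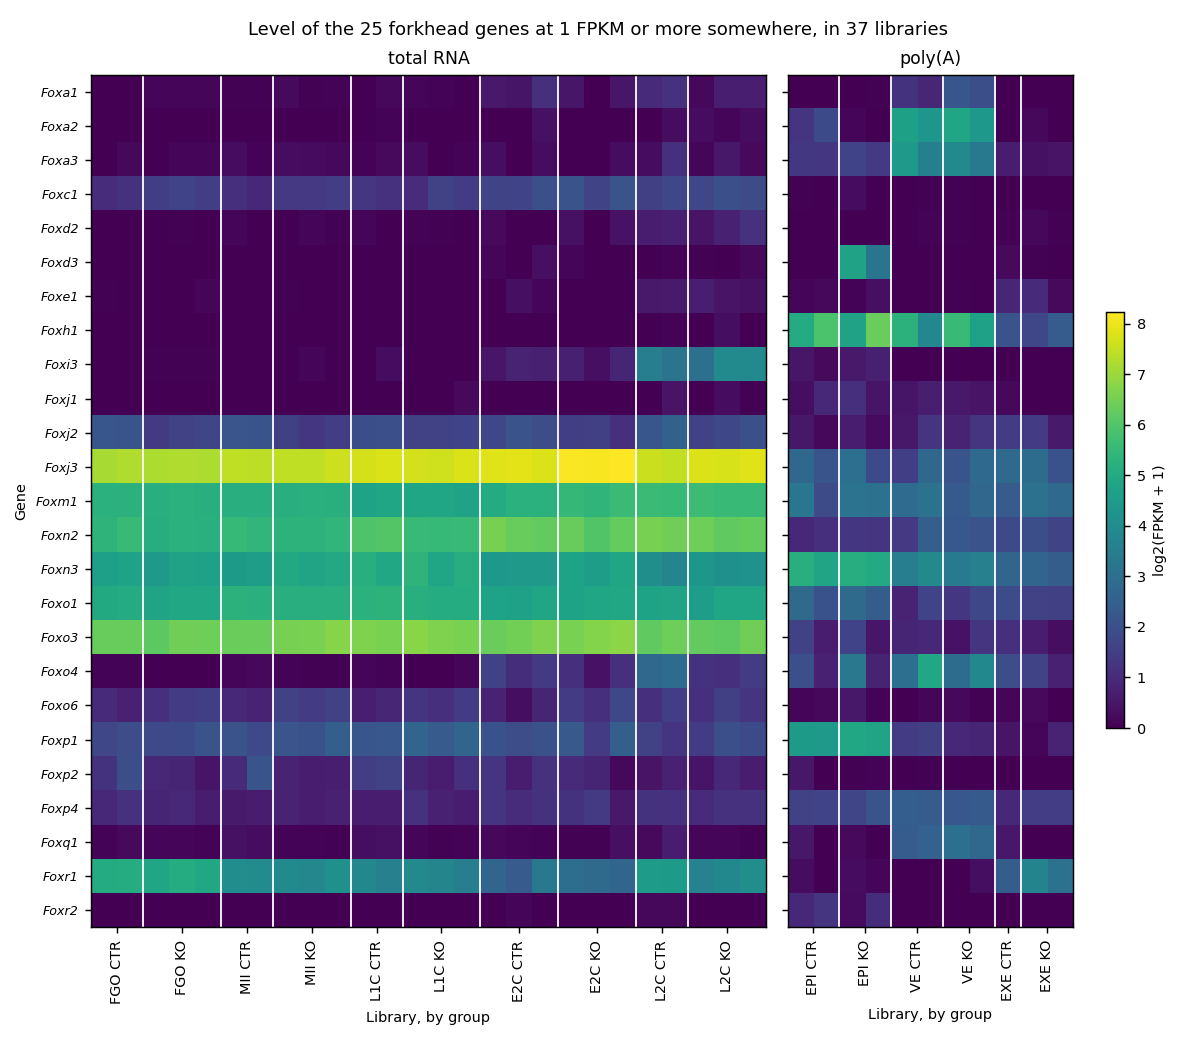
Level of each of the 25 forkhead genes that reached 1 FPKM in at least 1 library (rows) in each of the 37 libraries (columns, grouped by stage or lineage and genotype, white lines between groups), as log2(FPKM + 1) on one colour scale. Foxj3 and Foxo3 are the brightest rows in total RNA, Foxh1 is bright in EPI and VE, and Foxd3 lights up in EPI KO. The 17 genes below 1 FPKM everywhere are not drawn.

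The remaining genes were near the floor. Of the 22 genes below a mean of 2 FPKM in all 16 groups, Foxo6 and Foxr2 were called in a comparison and are described with their classes. Foxd2 peaked at 1.27 FPKM in L2C knockout library 3, Foxe1 at 1.03 FPKM in EXE knockout library 1, and Foxj1, the master gene of motile cilia, at 1.14 FPKM in EPI knockout library 1. The other 17 stayed below 1 FPKM in every library, with a highest value of 0.665 FPKM, for Foxl2 in L2C. Foxe3 and Foxi1 were listed at 0 in every library. Foxl2, a defining gene of granulosa cells, which surround the oocyte, was between 0.011 and 0.101 FPKM in FGO.

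In controls, Foxr1 fell and then returned. This less characterised gene lies at chr9:44433773-44441136 and was at 32.3 and 33.0 FPKM in FGO, 15.5 and 14.7 in MII, 13.5 and 10.9 in L1C, 5.48, 4.12 and 8.96 in E2C and 21.7 and 21.4 in L2C. The E2C libraries were all lower than those of any other stage and FGO the highest, with no overlap between FGO and MII or between E2C and L2C. The difference was -1.06 ± 0.14 (SE), adjusted p = 2.99e-05 from FGO to MII, -0.93 ± 0.19 (SE), adjusted p = 0.000463 from L1C to E2C and 1.71 ± 0.23 (SE), adjusted p = 3.14e-06 from E2C to L2C. The step from MII to L1C was not called (-0.29 ± 0.14 (SE), adjusted p = 0.136). From FGO to MII 2 tested forkhead genes rose and 1 fell, 18.8% of the 16, against 5.39% of all genes tested.

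The genes that rose were Foxj3 and Foxo1, a FOXO gene abundant in many tissues. Foxj3 was at 143 and 153 FPKM in FGO, 174 and 172 in MII, 207 and 219 in L1C, 227, 240.0 and 220.4 in E2C and 190.5 and 176 in L2C. Its level rose to L1C and fell at L2C, by 0.22 ± 0.06 (SE), adjusted p = 0.0222 at MII, 0.30 ± 0.06 (SE), adjusted p = 0.000458 at L1C and -0.32 ± 0.10 (SE), adjusted p = 0.00754 at L2C, and the step from L1C to E2C was not called (0.10 ± 0.08 (SE), adjusted p = 0.303). The step of Foxo1 at MII was 0.21 ± 0.06 (SE), adjusted p = 0.0393. The MII step of Foxj3 was lost with TPM scaling, without the intensity trend or without weights (adjusted p 0.0736 to 0.225) and without FGO control library 1 or MII control library 1 or 2 (adjusted p 0.0766 to 0.254). That of Foxo1 was lost with TPM scaling, after centring on library medians, without the intensity trend or without weights (adjusted p 0.063 to 0.499) and without FGO control library 1 or 2 or FGO knockout library 2 or 3 or MII control library 1 or 2 or MII knockout library 1 or 2 (adjusted p 0.0558 to 0.265).

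After fertilization 4 tested genes rose and 1 fell from MII to L1C, 31.2% of the 16 against 25.4% of all genes. Foxn2 went from 45.3 and 42.2 to 61.4 and 64.1 FPKM (0.51 ± 0.07 (SE), adjusted p = 1.72e-05) and Foxn3, a checkpoint-linked repressor, from 21.6 and 23.6 to 35.7 and 29.9 FPKM (0.51 ± 0.12 (SE), adjusted p = 0.00285). Foxm1 fell from 36.1 and 36.1 to 26.4 and 28.4 FPKM (-0.39 ± 0.06 (SE), adjusted p = 3.39e-05), and Foxo3 rose by 0.26 (adjusted p = 0.031). The rise of Foxn3 was lost without control library 1 (adjusted p = 0.0747). That of Foxo3 was lost with TPM scaling, without the intensity trend or without weights (adjusted p 0.0531 to 0.176) and without MII control library 1 or 2 or L1C control library 1 or 2 (adjusted p 0.0859 to 0.184).

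From L1C to E2C 7 tested genes rose and 3 fell, 62.5% against 47.2% of all genes. Foxo4, a FOXO gene on the X chromosome at chrX:101254528-101260873, went from 0.110 and 0.05 to 1.99, 1.11 and 1.62 FPKM (1.24 ± 0.15 (SE), adjusted p = 1.19e-06). Foxn2 (92.8, 79.0 and 76.2 FPKM in E2C) and Foxm1 (32.7, 37.2 and 37.1 FPKM) also rose, by 0.39 (adjusted p = 0.00285) and 0.37 (adjusted p = 0.000635). So did 4 low genes, Foxa1, Foxc1, Foxi3 and Foxp4, none above 3.04 FPKM in an E2C control library. The falls were in Foxr1, in Foxn3, to 19.9, 20.7 and 20.6 FPKM (-0.65 ± 0.17 (SE), adjusted p = 0.00262), and in Foxo1, from 37.0 and 39.0 to 26.6, 25.5 and 27.7 FPKM (-0.50 ± 0.08 (SE), adjusted p = 4.49e-05). Scaling each library to a fixed total moved the median of all genes in this step from -0.08 to -0.27, and with that scaling the rises of Foxn2 and Foxm1 were not called (adjusted p = 0.175 and 0.101). The same scaling ended the calls of Foxc1 and Foxp4. The call for Foxc1 was lost with TPM scaling (adjusted p = 0.105) and without L1C control library 2 or E2C control library 1 or 3 (adjusted p 0.0508 to 0.132). The call for Foxi3 was lost without L1C control library 1 or E2C control library 2 or 3 (adjusted p 0.0837 to 0.149). The call for Foxp4 was lost with a pseudocount of 0.1, with no filter or with TPM scaling (adjusted p 0.0616 to 0.131) and without L1C control library 1 or 2 or L1C knockout library 2 or E2C control library 1 or 2 or 3 or E2C knockout library 1 (adjusted p 0.0513 to 0.148).

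From E2C to L2C, the time of major genome activation, 5 tested genes rose and 1 fell, 37.5% against 51.7% of all genes. Foxi3, which acts in pharyngeal and placodal ectoderm, was at 0 and 0 FPKM in FGO, 0 and 0 in MII, 0 and 0.196 in L1C, 0.405, 0.717 and 0.647 in E2C and 10.5 and 7.92 in L2C (2.68 ± 0.23 (SE), adjusted p = 5.92e-09 for the last step). Foxo4 reached 5.84 and 6.33 FPKM (1.48 ± 0.19 (SE), adjusted p = 1.15e-06). Both, with Foxr1, were above all their E2C control libraries at L2C. The other rises were of Foxm1 (0.38 ± 0.10 (SE), adjusted p = 0.00235) and Foxo6 (0.68 ± 0.27 (SE), adjusted p = 0.0384). The fall of Foxj3 was lost without control library 2 (adjusted p = 0.0822). The rise of Foxm1 was lost with TPM scaling or after centring on library medians (adjusted p 0.144 to 0.349). That of Foxo6 was lost with no filter, with TPM scaling or after centring on library medians (adjusted p 0.0805 to 0.199) and without E2C control library 2 or L2C control library 2 (adjusted p 0.177 to 0.264). Of the 24 forkhead calls over the 4 control steps, 12 held in every alternative run for them. Runs in which a gene failed the filter are not counted, and for L1C to E2C Foxa1 had 16 runs against 18 for Foxr1. Foxa1 reached 1 FPKM in only 2 total RNA libraries, E2C control library 3 and L2C control library 2, so leaving out the former removed the gene. Foxi3 reached 1 FPKM in L2C libraries alone, so its last step had to differ. Consecutive steps share control libraries, which the comparisons with knockouts use too, so these results are not independent.

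**Figure D2:**
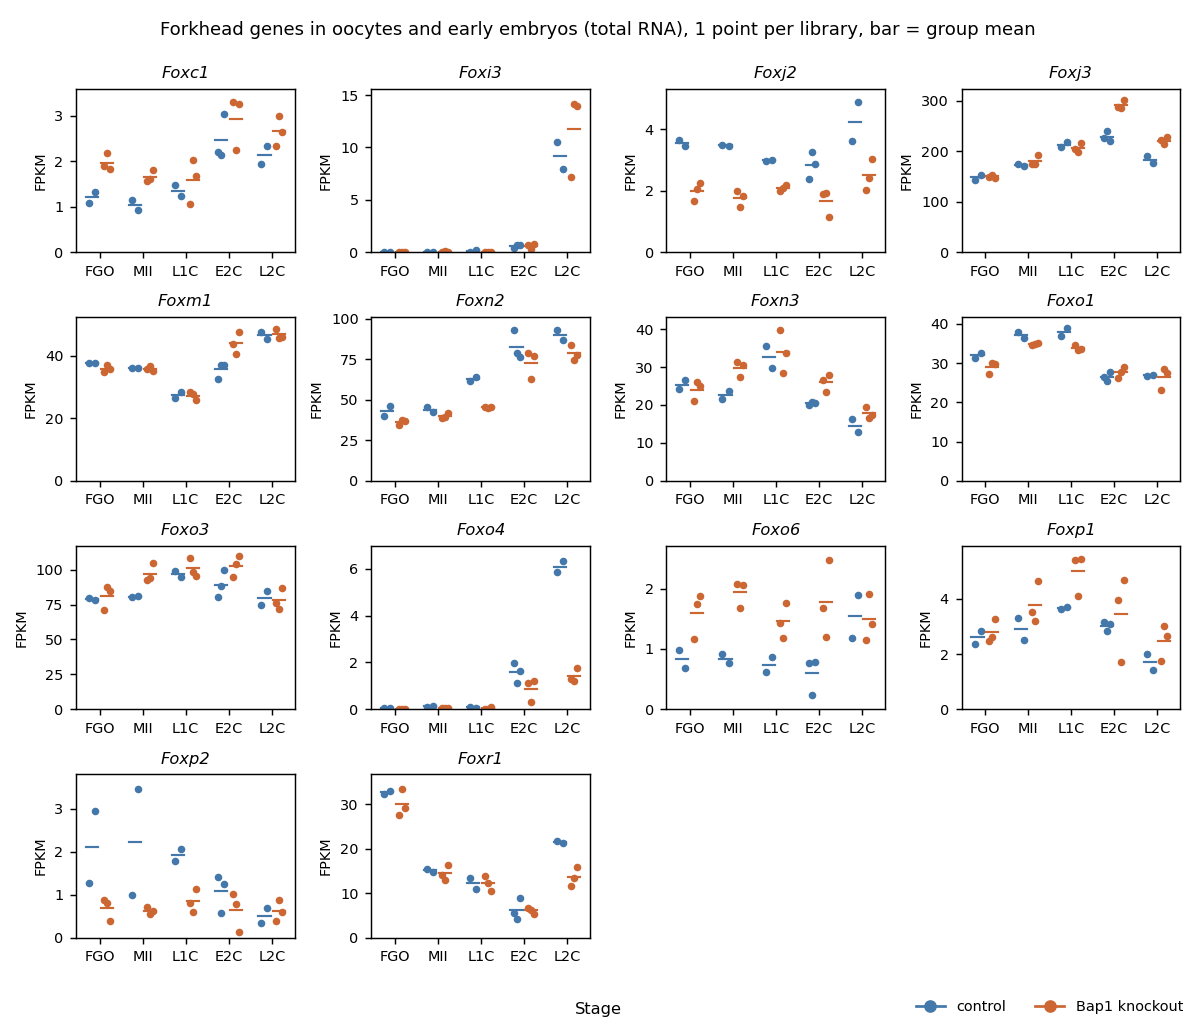
FPKM (vertical axis, from 0, its own range per gene) of 14 forkhead genes in total RNA, by stage. Drawn are those with a group mean of at least 2 FPKM there, and Foxo6. Foxa1 and Foxp4, low genes also called in total RNA, are not drawn. Each point is a library, blue for control and orange for Bap1 knockout, and each bar a group mean. Foxo4 parts at L2C, Foxj2 is lower in orange at all 5 stages, Foxr1 dips at E2C, and Foxi3 first exceeds 1 FPKM at L2C.

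The comparison of knockout with control asked which forkhead transcripts depended on BAP1 in the oocyte or on its maternal supply. Among the 16 tested genes 5 were called in FGO (2 higher, 3 lower), 6 in MII (4 higher, 2 lower), 3 in L1C (1 higher, 2 lower), 3 in E2C (all higher) and 5 in L2C (1 higher, 4 lower). These are 31.2%, 37.5%, 18.8%, 18.8% and 31.2% of the tested genes, where 13.9%, 16.8%, 17.6%, 13.5% and 34.2% of all genes were called. The median difference of the tested forkhead genes was -0.07 in FGO, 0.05 in MII, -0.02 in L1C, 0.05 in E2C and -0.02 in L2C, and that of all genes between 0 and 0.03. The 22 calls fell in 12 genes, and 4 of them held in every alternative run for them: Foxj2 in FGO and in MII, Foxn2 in L1C and Foxo4 in L2C.

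**Figure D3:**
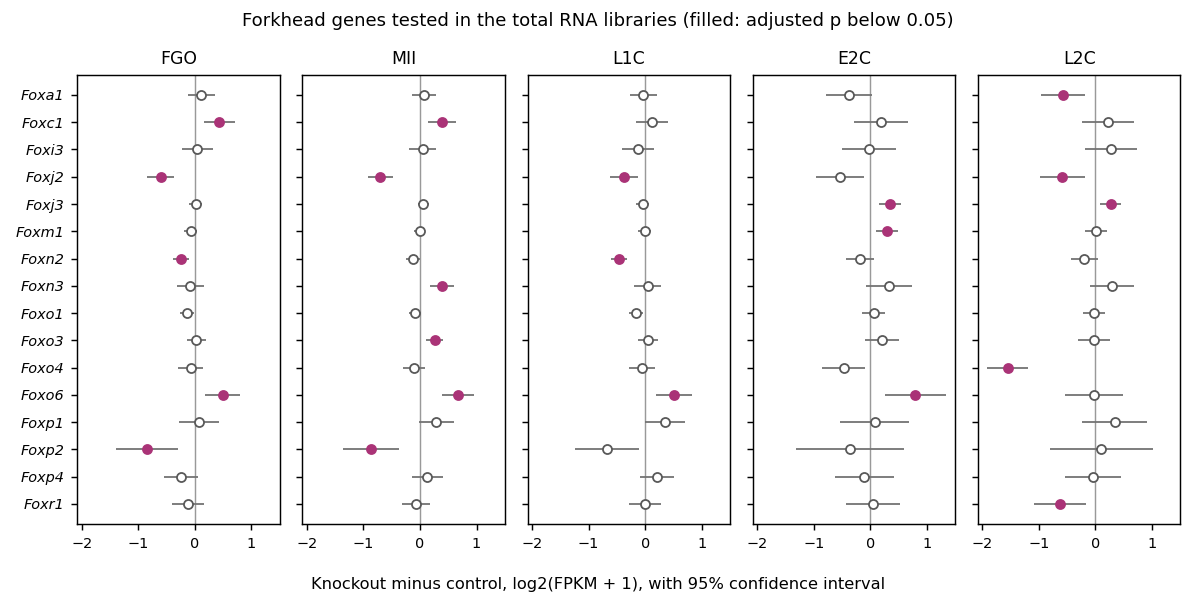
Knockout minus control on the log2(FPKM + 1) scale (horizontal axis) for the 16 forkhead genes tested, 1 panel per stage. Lines are 95% confidence intervals and filled points have an adjusted p below 0.05. Foxo4 in L2C lies furthest from 0 at -1.55, and Foxj2 is below 0 in every panel.

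Foxo4 was lower in L2C knockout embryos, the largest of the 22 called knockout differences of forkhead genes in total RNA. It was at 5.84 and 6.33 FPKM in the control and 1.31, 1.22 and 1.76 FPKM in the knockout libraries, with no overlap (-1.55 ± 0.18 (SE), adjusted p = 1.06e-06). In E2C it was at 1.99, 1.11 and 1.62 FPKM in controls and 1.14, 0.319 and 1.19 FPKM in knockouts, where the groups overlapped (-0.47 ± 0.18 (SE), adjusted p = 0.0992). From FGO to L1C no library exceeded 0.143 FPKM. The L2C knockout libraries thus lay in the range of the E2C controls. The L2C knockout effect differed from the E2C effect by -1.08 ± 0.25 (SE), adjusted p = 0.00464 in a test of the difference itself. That call was lost with a pseudocount of 0.1 (adjusted p = 0.338) or with TPM scaling (adjusted p = 0.126). In the same L2C libraries the summed level of 7 markers of the 2-cell embryo was 276 to 359 FPKM in knockouts and 99.3 to 104 FPKM in controls, and that of 10 oocyte markers was 821 to 950 and 495 to 522 FPKM. The E2C controls had 2-cell marker sums of 212 to 269 FPKM. The part of these markers in the forkhead differences at L2C was not tested.

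The other FOXO genes differed little or in the opposite direction. Foxo3 was at 80.8 and 80.8 FPKM in MII controls and 92.4, 93.7 and 105 FPKM in MII knockouts, all of the latter higher (0.26 ± 0.07 (SE), adjusted p = 0.0175). In FGO, L1C, E2C and L2C its difference was between -0.02 and 0.20 and was not called. Foxo1 was not called at any of the 5 stages. Its value was below that of every control in each FGO, MII and L1C knockout library, with differences of -0.14, -0.09 and -0.16 (adjusted p = 0.109, 0.25 and 0.0656). Foxo6, a FOXO gene of the brain that is not shut out of the nucleus like the others, was low but higher in knockouts from FGO to E2C. In MII it was at 0.916 and 0.766 FPKM in controls and 2.08, 1.68 and 2.06 FPKM in knockouts (0.67 ± 0.13 (SE), adjusted p = 0.00107). Its values were 0.988 and 0.689 against 1.16, 1.75 and 1.87 FPKM in FGO (0.49 ± 0.15 (SE), adjusted p = 0.0329), 0.613 and 0.864 against 1.44, 1.19 and 1.77 in L1C (0.50 ± 0.15 (SE), adjusted p = 0.0261) and 0.776, 0.231 and 0.787 against 1.68, 1.2 and 2.47 in E2C (0.80 ± 0.26 (SE), adjusted p = 0.0473). The groups did not overlap at those 4 stages, and at L2C they did (-0.03 ± 0.25 (SE), adjusted p = 0.955). The MII call for Foxo3 was lost without weights, with the stage fitted alone or with the replicate block (adjusted p 0.0524 to 0.208) and without control library 1 or 2 (adjusted p 0.102 to 0.108). The MII call for Foxo6 was lost only without weights (adjusted p = 0.0675). Its FGO call was lost with no filter, without weights, with the stage fitted alone or with the replicate block (adjusted p 0.0548 to 0.228) and without control library 1 or 2 or knockout library 2 or 3 (adjusted p 0.0596 to 0.316). Its L1C call was lost without weights, with the stage fitted alone or with the replicate block (adjusted p 0.0938 to 0.181) and without control library 1 or 2 or knockout library 3 (adjusted p 0.0619 to 0.24). Its E2C call was lost with no filter, with the stage fitted alone or with the replicate block (adjusted p 0.07 to 0.0986) and without control library 1 or 2 or 3 or knockout library 1 or 3 (adjusted p 0.0601 to 0.215).

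Foxj2, a broadly expressed activator, was called lower in knockouts in FGO, MII, L1C and L2C. In FGO it was at 3.65 and 3.44 FPKM in controls and 1.66, 2.06 and 2.26 FPKM in knockouts (-0.61 ± 0.12 (SE), adjusted p = 0.000925), and in MII at 3.50 and 3.45 in controls and 1.98, 1.48 and 1.84 FPKM in knockouts (-0.70 ± 0.10 (SE), adjusted p = 4.93e-05). In L1C the values were 2.98 and 3.0 against 2.00, 2.09 and 2.18 FPKM (-0.37 ± 0.12 (SE), adjusted p = 0.0352), and in L2C 3.62 and 4.88 against 2.03, 2.42 and 3.04 FPKM (-0.59 ± 0.19 (SE), adjusted p = 0.0222). In E2C they were 2.39, 3.27 and 2.88 against 1.89, 1.94 and 1.16 FPKM, which was not called (-0.54 ± 0.20 (SE), adjusted p = 0.0849). At all 5 stages every knockout library was below every control library. The gene lies at chr6:122819914-122845366, and 2.99% of its exonic bases are shared with Gm26826 on the other strand or Mir7231. The L1C call was lost with a pseudocount of 0.1, with TPM scaling, after centring on library medians, without weights, with the stage fitted alone or with the replicate block (adjusted p 0.0641 to 0.222) and without control library 1 or 2 or knockout library 1 or 2 (adjusted p 0.0652 to 0.174). The L2C call was lost with no filter, with TPM scaling, with the stage fitted alone or with the replicate block (adjusted p 0.0518 to 0.127) and without control library 2 or knockout library 1 or 2 (adjusted p 0.0566 to 0.241).

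Its relative Foxj3 went the other way in 2-cell embryos. Foxj3 was at 227, 240.0 and 220.4 FPKM in E2C controls and 288, 286 and 301 FPKM in E2C knockouts (0.35 ± 0.09 (SE), adjusted p = 0.0167), and at 190.5 and 176 in controls and 222, 214 and 227 FPKM in knockouts in L2C (0.27 ± 0.09 (SE), adjusted p = 0.0224). Neither pair of groups overlapped, and the L2C knockouts overlapped the E2C controls. From FGO to L1C its differences were between -0.04 and 0.06 and none was called. The summed forkhead FPKM in E2C was 562 to 614 in knockouts and 500.2 to 508 in controls. The E2C call was lost without the intensity trend (adjusted p = 0.0508) and without control library 1 or 3 or knockout library 3 (adjusted p 0.0528 to 0.0679). The L2C call was lost with no filter, without the intensity trend or with the replicate block (adjusted p 0.0606 to 0.127) and without control library 2 or knockout library 3 (adjusted p 0.0835 to 0.193).

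Foxn2 was lower in knockout zygotes. In L1C it was at 61.4 and 64.1 FPKM in controls and 45.6, 44.8 and 45.4 FPKM in knockouts (-0.46 ± 0.07 (SE), adjusted p = 5.48e-05). In MII it had been at 45.3 and 42.2 FPKM in controls and 38.8, 39.1 and 42.0 FPKM in knockouts, and in both genotypes every zygote library was above the MII libraries of that genotype. In FGO the levels were 40.0 and 45.8 in controls and 34.2, 37.1 and 36.5 FPKM in knockouts (-0.25 ± 0.07 (SE), adjusted p = 0.0174). In MII, E2C and L2C the difference was -0.13, -0.18 and -0.19, not called. Foxn3 was higher in MII knockouts, at 31.4, 27.3 and 30.7 FPKM against 21.6 and 23.6 FPKM (0.38 ± 0.10 (SE), adjusted p = 0.0107). In E2C it was at 26.6, 23.4 and 27.9 FPKM in knockouts and 19.9, 20.7 and 20.6 FPKM in controls, and in L2C at 19.5, 16.5 and 17.5 FPKM in knockouts and 16.3 and 12.7 FPKM in controls. Every knockout library was above the controls at both stages, and neither difference was called (0.33 and 0.29, adjusted p = 0.315 and 0.264). The FGO call for Foxn2 was lost after centring on library medians, without weights or with the stage fitted alone (adjusted p 0.147 to 0.231) and without control library 2 (adjusted p = 0.343). The MII call for Foxn3 was lost without weights (adjusted p = 0.106) and without control library 1 or knockout library 1 (adjusted p 0.0511 to 0.141).

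Foxm1 was higher in E2C knockouts, at 43.9, 40.5 and 47.7 FPKM against 32.7, 37.2 and 37.1 FPKM in controls (0.30 ± 0.09 (SE), adjusted p = 0.0414). In the other 4 stages its difference was between -0.07 and 0.01. Foxr1 was lower in L2C knockouts, at 11.6, 13.5 and 15.9 FPKM against 21.7 and 21.4 FPKM (-0.63 ± 0.22 (SE), adjusted p = 0.0297). In E2C the groups overlapped, at 6.78, 6.20 and 5.44 FPKM in knockouts and 5.48, 4.12 and 8.96 FPKM in controls. Foxi3 was not called in L2C, with 10.5 and 7.92 FPKM in controls and 7.18, 14.2 and 13.9 FPKM in knockouts (0.28 ± 0.22 (SE), adjusted p = 0.364, 95% interval -0.18 to 0.73). Of the 3 genes that rose most in control L2C embryos, Foxo4 and Foxr1 were thus lower in the knockout, and Foxi3 had overlapping groups. The call for Foxm1 was lost without the intensity trend, with the stage fitted alone or with the replicate block (adjusted p 0.0857 to 0.146) and without control library 1 or 2 or 3 or knockout library 1 or 3 (adjusted p 0.0553 to 0.205). That for Foxr1 was lost with no filter or with TPM scaling (adjusted p 0.118 to 0.222) and without control library 1 or 2 or knockout library 1 or 2 (adjusted p 0.068 to 0.127).

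The other calls were of low genes. Foxp2, a repressor best known from the brain, was at 1.29 and 2.96 FPKM in FGO controls and 0.876, 0.811 and 0.385 FPKM in knockouts (-0.84 ± 0.27 (SE), adjusted p = 0.0379). In MII it was at 1.00 and 3.46 in controls and 0.720, 0.545 and 0.633 FPKM in knockouts (-0.87 ± 0.24 (SE), adjusted p = 0.0132). Control libraries 2 were well above control libraries 1 at both stages, and every knockout library was lower than both. Foxc1, a mesenchymal and eye factor, was at 1.07 and 1.33 against 1.90, 2.19 and 1.82 FPKM in FGO (0.43 ± 0.13 (SE), adjusted p = 0.0332) and 1.14 and 0.930 against 1.56, 1.61 and 1.80 FPKM in MII (0.38 ± 0.12 (SE), adjusted p = 0.0286), higher in knockouts. Foxa1 was at 0.997 and 1.25 FPKM in L2C controls and 0.134, 0.60 and 0.60 FPKM in knockouts (-0.57 ± 0.19 (SE), adjusted p = 0.0212). Foxp1 and Foxp4 were not called at any early stage. The FGO call for Foxp2 was lost with no filter, after centring on library medians, without weights, with the stage fitted alone or with the replicate block (adjusted p 0.0551 to 0.215) and without control library 2 or knockout library 2 or 3 (adjusted p 0.0633 to 0.502). Its MII call was lost without weights or with the stage fitted alone (adjusted p 0.106 to 0.125) and without control library 2 or knockout library 2 (adjusted p 0.0511 to 0.535). The FGO call for Foxc1 was lost without weights, with the stage fitted alone or with the replicate block (adjusted p 0.104 to 0.18) and without control library 1 or 2 or knockout library 2 or 3 (adjusted p 0.0637 to 0.264). Its MII call was lost without weights, with the stage fitted alone or with the replicate block (adjusted p 0.112 to 0.28) and without control library 1 or 2 or knockout library 1 or 2 (adjusted p 0.0505 to 0.261). The call for Foxa1 was lost with a pseudocount of 0.1, with no filter or with TPM scaling (adjusted p 0.114 to 0.149) and without control library 1 or knockout library 1 (adjusted p 0.052 to 0.0868). Foxa1 reached 1 FPKM in only 2 total RNA libraries, E2C control library 3 and L2C control library 2. It was thus tested only through controls, the higher group, and leaving out L2C control library 2 removed the gene.

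Granulosa and cumulus cells are the other cell type an oocyte sample could hold. Of their 14 markers, 12 were below 1 FPKM in FGO controls and 12 in FGO knockouts, Ptx3 being at 0 in both and Amh in the knockouts, and their summed level was 24.6 to 27.4 FPKM in controls and 15.7 to 18.2 FPKM in knockouts. The same markers summed to 23.66 to 24.35 FPKM in MII controls and 16.44 to 16.93 FPKM in MII knockouts. In L1C the sums were 22.31 to 29.32 and 13.49 to 16.9 FPKM. In E2C embryos they were 19.32 to 21.55 and 11.05 to 12.01 FPKM, and in L2C embryos 36.22 to 39.24 and 20.93 to 31.88 FPKM. The part of the FGO difference in the FGO results was not tested.

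Whether a knockout effect changed between consecutive stages was tested directly. None of the 16 genes was called between FGO and MII, between MII and L1C or between L1C and E2C, where 0%, 0.198% and 3.35% of all genes were called by limma. At an unadjusted p below 0.05 there were 2, 3 and 2 of the 16, and 1678, 1904 and 2471 of all 15184 genes tested. Between E2C and L2C 1 gene was called, Foxo4, which is 6.25% of the 16 against 18.9% of all genes, and that call was lost with a pseudocount of 0.1 or with TPM scaling (adjusted p = 0.338 and 0.126). A call at one stage and none at the next, as for Foxn2, Foxo3, Foxo6, Foxm1 and Foxr1, was not shown by these tests to be a difference between stages.

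Genes known to act with forkhead proteins were counted in the same comparisons. Of 38 tested genes of the FOXO pathway and its targets, 0 higher and 4 lower were called in FGO, 4 higher and 6 lower in MII, 4 higher and 3 lower in L1C, 3 higher and 1 lower in E2C and 4 higher and 6 lower in L2C. Their median difference stayed between -0.05 and 0.08. Ccng2, a cyclin that FOXO proteins induce, was lower in FGO (2.78 against 4.95 FPKM, -0.65 ± 0.11, adjusted p = 0.000201), and the death gene Bcl2l11 was lower in MII (4.09 against 7.45 FPKM, -0.73 ± 0.11, adjusted p = 3.87e-05). In L2C the FOXO target Klf2 was lower (0.662 against 5.45 FPKM, -1.95 ± 0.26, adjusted p = 7.3e-06) and Pik3ip1, an inhibitor of PI3K, was higher (2.7 against 0.706 FPKM, 1.15 ± 0.24, adjusted p = 0.000838). In controls Klf2 rose from 0.378 FPKM in E2C to 5.45 FPKM in L2C. A link of these genes to the level of Foxo4 was not tested. Both directions occurred at 4 of the 5 stages. From FGO to L2C the called shares were 10.5%, 26.3%, 18.4%, 10.5% and 26.3%, against 13.9%, 16.8%, 17.6%, 13.5% and 34.2% of all genes.

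Foxh1 itself was at 0 or near 0 in all early libraries, with a highest value of 0.227 FPKM in an L2C knockout library. Of 19 tested genes of the NODAL and SMAD2 pathway, 2 higher and 0 lower were called in FGO and 1 higher and 1 lower in MII. Each is 10.5% of the list, against 13.9% and 16.8% of all genes. The counts were 6 higher and 0 lower in L1C, 4 higher and 2 lower in E2C and 7 higher and 1 lower in L2C, with list medians of 0.24, 0.39 and 0.29 against 0.01, 0.00 and 0.03 over all genes tested. The called shares at those 3 stages were 31.6%, 31.6% and 42.1% of the list and 17.6%, 13.5% and 34.2% of all genes. The NODAL-processing proteases Pcsk6 (4.01 against 1.40 FPKM in L1C, 1.06 ± 0.15, adjusted p = 2.14e-05) and Furin (17.6 against 8.70 FPKM in E2C, 0.92 ± 0.18, adjusted p = 0.00139) were higher in knockouts. In L2C the pathway target Fgf8 was higher (11.5 against 2.39 FPKM, 1.88 ± 0.22, adjusted p = 1.27e-06). In controls Fgf8 fell from 28.9 FPKM in L1C to 8.72 in E2C and 2.39 in L2C. The list had 0 higher and 8 lower from MII to L1C in controls, 3 higher and 9 lower to E2C and 4 higher and 3 lower to L2C. Those are 42.1%, 63.2% and 36.8% of the list, against 25.4%, 47.2% and 51.7% of all genes. Whether higher knockout values reflect a smaller fall was not tested.

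Of 28 cell division genes regulated with FOXM1, 0 higher and 1 lower were called in FGO, 3 higher and 4 lower in MII and 3 higher and 3 lower in L1C. Then 3 higher and 4 lower were called in E2C and 4 higher and 8 lower in L2C. A link to the level of Foxm1 was not tested. The called shares from FGO to L2C were 3.57%, 25%, 21.4%, 25% and 42.9%, against 13.9%, 16.8%, 17.6%, 13.5% and 34.2% of all genes. Cdk1, the mitotic kinase, was lower in E2C (4.6 against 8.57 FPKM, -0.77 ± 0.17, adjusted p = 0.00402) and in L2C (28.9 against 49.8 FPKM, -0.74 ± 0.16, adjusted p = 0.00124), and the spindle checkpoint kinase gene Ttk was higher in L2C (88.4 against 21.0 FPKM, 2.03 ± 0.12, adjusted p = 3.87e-10). Of 18 partners of FOXP proteins, 0 higher and 0 lower were called in FGO and 2 higher and 1 lower in MII. The counts were 2 higher and 0 lower in L1C, 1 higher and 3 lower in E2C and 6 higher and 1 lower in L2C. The shares from FGO to L2C were 0%, 16.7%, 11.1%, 22.2% and 38.9%, against 13.9%, 16.8%, 17.6%, 13.5% and 34.2% of all genes. The deacetylase gene Hdac2 was lower in E2C (35.1 against 58.4 FPKM, -0.72 ± 0.13, adjusted p = 0.00104) and higher in L2C (59.2 against 29.6 FPKM, 0.98 ± 0.13, adjusted p = 5.64e-06). In L2C the corepressor gene Sin3b was higher (1.23 ± 0.19, adjusted p = 4.77e-05) and Mta2 lower (-1.31 ± 0.27, adjusted p = 0.000801). Of 9 tested endoderm genes of the FOXA list, 1 higher and 1 lower were called in FGO and 0 higher and 2 lower in MII. The counts were 0 higher and 1 lower in L1C, 0 higher and 1 lower in E2C and 0 higher and 3 lower in L2C. The shares from FGO to L2C were 22.2%, 22.2%, 11.1%, 11.1% and 33.3%, against 13.9%, 16.8%, 17.6%, 13.5% and 34.2% of all genes. The median of the 9 in L2C was 0.17. Gata4, an endoderm factor, was higher in FGO (8.15 against 6.06 FPKM, 0.37 ± 0.11, adjusted p = 0.0284) and lower in L2C (21.8 against 45.4 FPKM, -1.03 ± 0.18, adjusted p = 0.000161). Of 12 tested genes of the cilia program of FOXJ1, 0 higher and 3 lower were called in FGO, 1 higher and 2 lower in MII, 0 higher and 1 lower in L1C, 1 higher and 1 lower in E2C and 2 higher and 0 lower in L2C. The shares from FGO to L2C were 25%, 25%, 8.33%, 16.7% and 16.7%, against 13.9%, 16.8%, 17.6%, 13.5% and 34.2% of all genes. Foxj1 itself was at 0.361 FPKM or less in all total RNA libraries. The axonemal dynein gene Dnah11 was lower from FGO to E2C, with a difference of -0.64 in FGO (adjusted p = 0.000103).

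At embryonic day 6.5 the levels of single forkhead genes differed between the lineages. Averaged over genotypes, 5 of the 18 tested genes were higher and 6 lower in EPI than in VE, 61.1% against 38.4% of all genes. Between EXE and EPI 1 was higher in EXE and 5 lower, 33.3% against 19.6%. Between EXE and VE 1 was higher in EXE and 7 lower, 44.4% against 22.6%. Of these 25 calls 19 held in every alternative run for them. Runs in which a gene failed the filter are not counted. For EPI minus VE, Foxd3 and Foxr2 had 13 runs each, against 16 for Foxa2. Each of Foxd3 and Foxr2 reached 1 FPKM in only 2 poly(A) libraries, both of EPI, so leaving out either one removed the gene. Foxa1 and Foxq1 reached 1 FPKM in VE alone, and Foxr1 in EXE alone. All of these genes were thus tested only through the lineage where they were high and had to differ. The counts and shares of calls between lineages are therefore descriptive and no test of the family. The single EXE control library gives that group no spread of its own, and it was assumed to vary like the others.

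**Figure D4:**
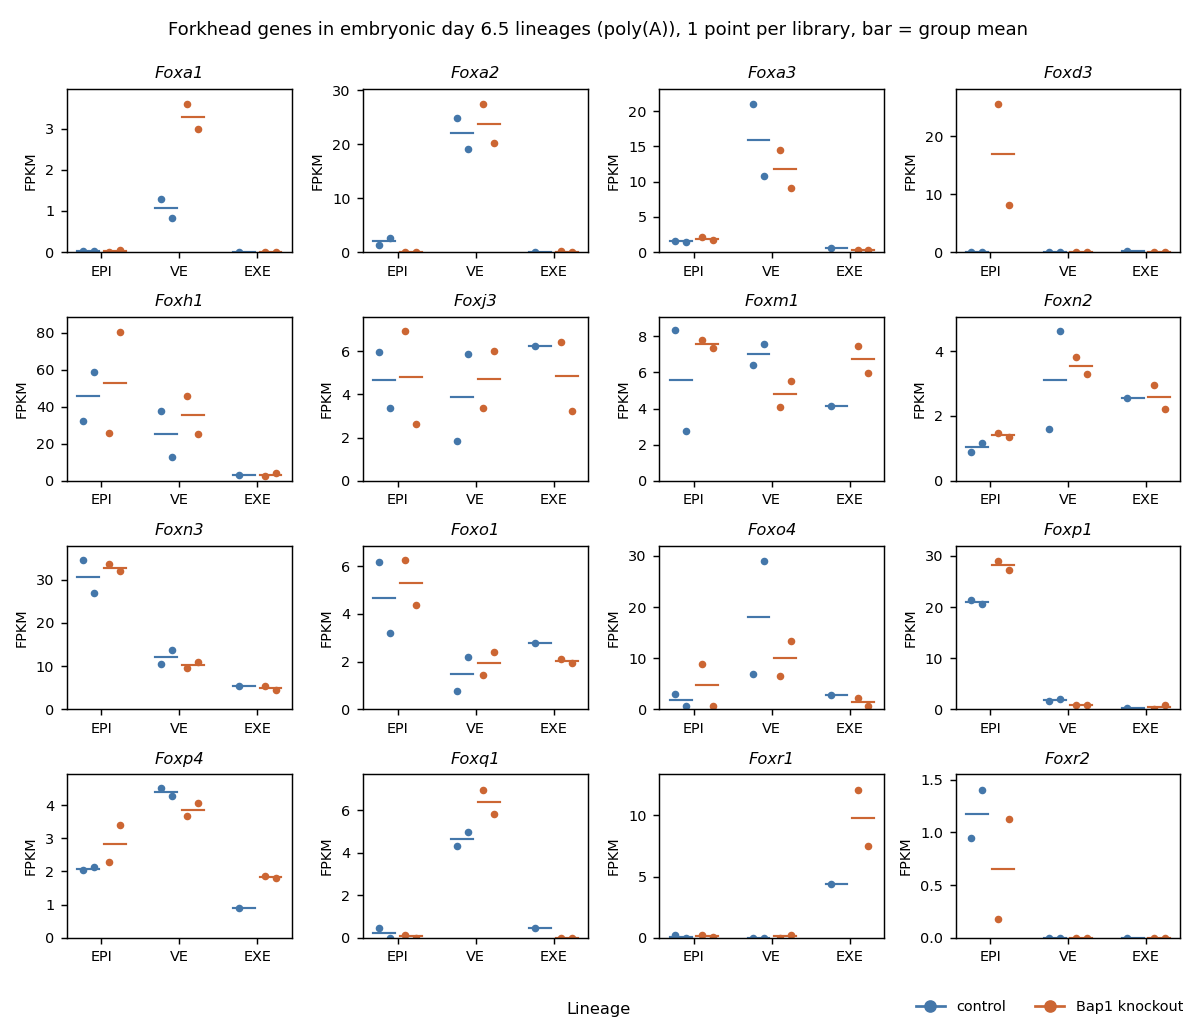
FPKM (vertical axis, from 0, its own range per gene) of the 16 forkhead genes named for poly(A) RNA, by lineage of the embryonic day 6.5 embryo. Each point is a library, blue for control and orange for maternal Bap1 knockout, and bars are group means. Foxa2 and Foxq1 mark VE, Foxp1 EPI and Foxr1 EXE, and Foxd3 shows points above 0 in EPI in orange alone.

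The FOXA genes, which encode endoderm pioneer factors, were highest in visceral endoderm. Foxa2, at chr2:148042877-148046969, was at 24.9 and 19.1 FPKM in VE controls and 27.4 and 20.2 FPKM in VE knockouts, 1.38 and 2.58 FPKM in EPI controls and 0.075 and 0 FPKM in EPI knockouts. In EXE it was at 0 FPKM in the control and 0.134 and 0 FPKM in knockouts. The EPI minus VE difference was -3.77 ± 0.25 (SE), adjusted p = 4.19e-06. Foxa3 was at 21.0 and 10.8 in controls and 14.5 and 9.03 FPKM in knockouts in VE against 1.48 to 2.12 FPKM in EPI (-2.40 ± 0.28 (SE), adjusted p = 0.00013). Foxa1 was lower, at 1.30 and 0.839 FPKM in VE controls and 3.60 and 2.98 FPKM in VE knockouts, and at 0.041 FPKM or less in all EPI and EXE libraries (-1.54 ± 0.17 (SE), adjusted p = 8.52e-05). Foxq1, a gut and skin factor, was at 4.32 and 4.99 in controls and 6.96 and 5.80 FPKM in knockouts in VE and below 0.46 FPKM elsewhere (-2.50 ± 0.20 (SE), adjusted p = 1.57e-05), but 66.07% of its exonic bases overlap A530084C06Rik on the other strand, so its reads may be shared with that gene. In both genotypes each of the 4 was higher in every VE library than in every EPI or EXE library. Of 25 tested endoderm genes of the FOXA list, 1 higher and 23 lower were called in EPI against VE, 96% against 38.4% of all genes, including Ttr, a FOXA target (0.235 against 1143 FPKM, -9.78 ± 0.28, adjusted p = 4.63e-08). The list holds all the visceral endoderm markers that checked the libraries above. Its share was thus largely set by the choice of genes and says nothing further about the FOXA genes.

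Foxp1, Foxn3 and Foxr2 were highest in epiblast. Foxp1 was at 21.4 and 20.5 FPKM in EPI controls and 29.0 and 27.3 FPKM in knockouts, at 1.69 and 1.97 in controls and 0.879 and 0.809 FPKM in knockouts in VE, and at 0.345 in controls and 0.091 and 0.782 FPKM in knockouts in EXE (3.47 ± 0.24 (SE), adjusted p = 5.72e-06 for EPI minus VE and -4.21 ± 0.27 (SE), adjusted p = 1.21e-05 for EXE minus EPI). No library of VE or EXE came near those of EPI. Foxn3 had the order EPI, VE, EXE, at 34.5 and 26.8 in controls and 33.7 and 31.9 FPKM in knockouts in EPI, 10.5 and 13.8 in controls and 9.45 and 11 in knockouts in VE, and 5.47 in controls and 5.43 and 4.36 in knockouts in EXE. The ranges did not overlap, with 1.43 ± 0.21 (SE), adjusted p = 0.000657 for EPI minus VE and -0.97 ± 0.24 (SE), adjusted p = 0.0165 for EXE minus VE. Foxr2 was low, at 0.951 and 1.41 FPKM in EPI controls and 0.182 and 1.13 FPKM in knockouts, and was listed at 0 in all 7 VE and EXE libraries (0.89 ± 0.20 (SE), adjusted p = 0.00695 for EPI minus VE). Foxd3 was also called (1.98 ± 0.30 (SE), adjusted p = 0.000665 for EPI minus VE and -1.86 ± 0.33 (SE), adjusted p = 0.00362 for EXE minus EPI), through its EPI knockout libraries, which are described with the genotypes. The EXE minus VE call for Foxn3 was lost with the replicate block across lineages or with knockout libraries only (adjusted p 0.0668 to 0.0731) and without VE knockout library 2 or EXE knockout library 2 (adjusted p 0.0622 to 0.0641). The EXE minus EPI call for Foxr2 was lost with no filter, with the replicate block across lineages or with knockout libraries only (adjusted p 0.0566 to 0.172) and without knockout library 1 or 2 (adjusted p 0.0604 to 0.0652).

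Foxh1, the DNA-binding partner of SMAD2, was the most abundant forkhead transcript on average in EPI and VE of both genotypes. It was at 32.5 and 58.7 FPKM in EPI controls, 25.6 and 80.2 FPKM in EPI knockouts, 37.8 and 13.1 FPKM in VE controls, 45.8 and 25.4 FPKM in VE knockouts, 3.32 FPKM in the EXE control and 2.37 and 4.25 FPKM in EXE knockouts. Libraries of the same group differed widely, EPI and VE overlapped, and every EXE library was below both. EXE was lower than EPI, at -3.42 ± 0.51 (SE), adjusted p = 0.00123 and lower than VE, at -2.75 ± 0.51 (SE), adjusted p = 0.00359. The gene lies at chr15:76668225-76669948. Of 27 tested genes of its pathway, 8 higher and 6 lower were called in EPI against VE and 3 higher and 9 lower in EXE against EPI. These are 51.9% and 44.4%, against 38.4% and 19.6% of all genes. Lower in EXE was the NODAL co-receptor gene Tdgf1 (10.6 against 135 FPKM, -4.01 ± 0.67, adjusted p = 0.00244).

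Foxr1 was the forkhead gene highest in EXE relative to the other lineages. It was at 4.36 FPKM in the EXE control and 12.1 and 7.50 FPKM in the knockouts, and at 0.247 FPKM or less in every EPI and VE library (2.73 ± 0.23 (SE), adjusted p = 5.65e-05 for EXE minus EPI, 2.83 ± 0.23 (SE), adjusted p = 2.36e-05 for EXE minus VE). Foxo4 was at 7.00 and 29.0 FPKM in VE controls, 6.52 and 13.4 in VE knockouts, 3.06 and 0.677 in EPI controls and 8.90 and 0.711 in EPI knockouts, with overlapping lineages (-1.95 ± 0.63 (SE), adjusted p = 0.035 for EPI minus VE). Foxo1 was higher in EPI than in VE (1.16 ± 0.30 (SE), adjusted p = 0.0122), Foxn2 lower (-0.92 ± 0.28 (SE), adjusted p = 0.0259), and Foxp4, a lung and gut factor, lower in EXE than in VE (-1.15 ± 0.24 (SE), adjusted p = 0.00729). Foxj3 and Foxm1 were called between no lineages, with ranges of 1.85 to 6.96 FPKM and 2.76 to 8.35 FPKM over the 11 libraries. The EPI minus VE call for Foxo4 was lost with no filter or with the replicate block across lineages (adjusted p 0.0555 to 0.175) and without EPI control library 2 or EPI knockout library 2 or VE control library 2 or VE knockout library 1 or 2 (adjusted p 0.0541 to 0.131). That for Foxn2 was lost with no filter (adjusted p = 0.0711) and without EPI control library 1 or VE control library 2 or VE knockout library 1 or 2 (adjusted p 0.0606 to 0.0785). That for Foxo1 was lost without knockout library 1 (adjusted p = 0.053). The EXE minus VE call for Foxp4 was lost with knockout libraries only (adjusted p = 0.137).

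Loss of maternal BAP1 gave no forkhead call in EPI, VE or EXE in limma, where 0%, 0.00719% and 0% of all genes were called. An unadjusted p below 0.05 was reached by 2, 1 and 1 of the 18 forkhead genes. Of all 13914 genes tested, 469, 248 and 251 reached it. Foxd3 came nearest. It was listed at 0 in both EPI controls and at 25.6 and 8.16 FPKM in EPI knockout libraries 1 and 2, and the groups did not overlap. It was also listed at 0 in all 4 VE libraries and was below 0.2 FPKM in EXE. The difference in EPI was 3.96 ± 0.42 (SE), adjusted p = 0.0576, on a scale where a gene at 0 takes its difference from the pseudocount. With a pseudocount of 0.1 the difference was 7.19 (adjusted p = 0.0169), and with TPM scaling it was 4.56 (adjusted p = 0.0128). Leaving out EPI control library 1 gave an adjusted p of 0.493, and leaving out EPI control library 2 one of 0.261. Without either knockout library the gene did not pass the filter. As the calls between lineages average over genotypes, the higher Foxd3 level in EPI rests on the knockout libraries alone. The gene lies at chr4:99656299-99658622, and 3.83% of its exonic bases are shared with Gm23366.

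The lower EPI knockout value of Foxd3, 8.16 FPKM, was used as a cutoff for all genes, so Foxd3 met it by construction. Over all 55401 genes 4 were at 0 in both EPI controls and at or above the cutoff in both EPI knockouts, and 0 the other way round. The 4 were Foxd3, Gm28437, Gm28661 and Gm49356, counted after the values of Foxd3 were seen. The count is descriptive and is no test of the Foxd3 difference. A 0 in a table of FPKM can also be a failed estimate. The effect in EPI minus that in VE was 3.96 ± 0.60 (SE), adjusted p = 0.514 for Foxd3, not called. No forkhead gene was called in the 3 tests of a knockout effect between lineages, where 0.00719% (EPI minus VE), 0% (EXE minus EPI) and 0% (EXE minus VE) of all genes were called. An unadjusted p below 0.05 was reached by 3, 2 and 1 forkhead genes, and by 255, 306 and 205 of all 13914 genes tested.

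Foxa2 in epiblast went the other way, from 1.38 and 2.58 FPKM in controls to 0.075 and 0 FPKM in knockouts, with no overlap (-1.49 ± 0.35 (SE), adjusted p = 1). Foxa2 also marks the anterior primitive streak. The summed level of 10 streak and mesoderm markers was 65.3 to 92.9 FPKM in EPI controls and 16.3 to 88.7 FPKM in knockouts, and that of 10 visceral endoderm markers was 7.51 to 9.08 and 2.19 to 5.05 FPKM. Their part in the Foxa2 values was not tested. Foxr1 in EXE was at 12.1 and 7.50 FPKM in knockouts against 4.36 FPKM in the control (0.98 ± 0.36 (SE), adjusted p = 1). Foxh1 differed by 0.06 ± 0.64 (SE), adjusted p = 1, in EPI, with a 95% interval of -1.39 to 1.5. Foxo4, lower in L2C knockouts, had overlapping groups in EPI and VE, and in EXE its knockout values of 2.26 and 0.673 FPKM were below the control's 2.85 FPKM (-0.72 ± 1.09 (SE), adjusted p = 1). Foxj2, lower in knockouts up to L2C, was between 0.137 and 1.71 FPKM in these lineages, with overlapping groups in all 3 lineages (0.07 in EPI, 0.12 in VE and -0.41 in EXE, each with an adjusted p = 1). In every lineage Y-linked genes summed to 25.9 FPKM or more in control library 1 and knockout library 2 and were at 0 in the others. The part of this split in the differences was not tested.

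None of the genes of the 6 forkhead-related lists was called between genotypes in EPI, VE or EXE. Of all genes 0%, 0.00719% and 0% were called there, so the absence of calls does not set the lists apart. The genes tested were 38 of the FOXO list, 27 of the NODAL list, 28 of the FOXM1 list, 18 of the FOXP list, 25 of the FOXA list and 7 of the FOXJ1 list.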

How the data were processed

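RNA was measured by sequencing in 26 total RNA libraries (SMART-Seq Stranded kit, per the labels' protocols) and 11 poly(A) libraries (SMART-Seq mRNA with Nextera XT). The deposited values are FPKM per gene computed by the authors, and the columns are headed rpkm. Per the submitters' processing notes, Trim Galore 0.6.6, STAR 2.7.9, StringTie 2.1.7 and build mm10 were used. The annotation, and whether counting used strand, are not given in the sources used here. In the deposited column of 1 epiblast control 1 gene was slightly negative, which an FPKM cannot be, and that value was set to 0. Whether the other values of that column are pure FPKM is not known, and they were used as FPKM. FPKM keep no read numbers here: sequencing depth is unknown, and intervals for counting error are left out. The summed FPKM was 300668 to 430784 in total RNA and 593705 to 704522 in poly(A) RNA.

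Values were tested as log2(FPKM + 1) with limma 3.58.1 in R 4.3.3, on genes for which 2 or more libraries of the table reached 1 FPKM. The total RNA fit had a mean per group, weights per stage and an intensity trend, and the poly(A) fit a mean per group and the trend. P-values were adjusted by the Benjamini-Hochberg method over all genes tested. The alternatives changed the pseudocount (0.1), the filter, the scaling, the trend, the weights, the stages fitted together, the replicate block and each library left out. A run in which a gene failed the filter is not counted for that gene. The 3 tests of a knockout effect between lineages were added after the data were seen. The procedure was tested on simulated data. Gene positions are from GENCODE M21 and promoters from RefSeq, GRCm38.p6.

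Forkhead genes were named if a group mean reached 2 FPKM or a comparison called them, and at most 3 called genes of each list per comparison were eligible for naming, those with the largest changes. The genes and lists were chosen with earlier results of these data known.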

Additional observations from a re-analysis of the deposited data

Results flagged for a closer look

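The knockout effect on Foxo4 differed between 2-cell stages by a test of the difference itself in limma. The effect in L2C minus that in E2C was -1.08 ± 0.25 (SE), adjusted p = 0.00464. Every one of the 3 L2C knockout libraries was below both controls, while the E2C groups overlapped. The call was lost with a pseudocount of 0.1 (adjusted p = 0.338) and with TPM scaling (adjusted p = 0.126).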

How the results depend on the processing

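Counts of called forkhead genes moved with the settings, and no direction of a named difference reversed. Of the comparisons of single genes with alternatives, 935 kept their side of the threshold, 184 lost it and 2 gained it. For knockout against control, the FGO count of 5 became 3 with no filter, 1 with a mean of at least 5 FPKM, 3 after centring, 1 without weights, 1 with the stage alone and 2 with the replicate block. The MII count of 6 became 2 with the mean of 5 FPKM, 1 without weights and 3 with the stage alone. The L1C count of 3 became 5 with no filter and 1 with the mean of 5 FPKM, without weights or with the replicate block. The E2C count of 3 became 1 without the trend, with the stage alone or with the replicate block, and 6 without weights. The L2C count of 5 became 3 with no filter, 2 with the mean of 5 FPKM or TPM scaling, and 3 with the stage alone or the replicate block. Between control stages, the MII minus FGO count of 3 became 1 with TPM scaling, without the trend or without weights, and the E2C minus L1C count of 10 became 5 with the mean of 5 FPKM and 6 with TPM scaling. For the change of effect from L1C to E2C, 0 became 1 with the mean of 5 FPKM or without weights. From E2C to L2C, 1 became 0 with a pseudocount of 0.1, the mean of 5 FPKM or TPM scaling, and 3 with no filter or without weights. At embryonic day 6.5 the EPI knockout count of 0 became 1 with a pseudocount of 0.1 or TPM scaling, and EXE minus EPI of knockout effects went from 0 to 1 with no filter. The mean of 5 FPKM gave 5 for EPI minus VE (from 11), 3 for EXE minus EPI (from 6) and 4 for EXE minus VE (from 8). It tests fewer genes. The cause of the other moves was not tested. Leaving out single libraries gave 1 to 5 in FGO (lowest without control 2), 3 to 6 in MII (lowest without control 1 or 2), 1 to 2 in L1C (lowest without control 1 or 2), 0 to 3 in E2C (lowest without control 1, control 3 or knockout 3) and 1 to 4 in L2C (lowest without control 2). It gave 1 to 3 for MII minus FGO, 3 to 5 for L1C minus MII, 6 to 10 for E2C minus L1C, 4 to 7 for L2C minus E2C, 0 to 1 and 1 to 2 for the effect changes from L1C to E2C and E2C to L2C, 8 to 11 for EPI minus VE, 4 to 6 for EXE minus EPI and 7 to 9 for EXE minus VE. Without the EXE control there is no value for the EXE knockout contrasts. Replicate numbers did not pair the early libraries (correlations of same-numbered deviations -0.077 to 0.093). They were 0.587 in EPI and 0.424 in VE, where no label says that a number marks a shared source.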
